A study of Mus musculus with 18 samples.

Results

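The T cell receptor signalling machinery is the set of genes through which a T cell reads its antigen receptor. It was taken as 43 named genes out of the 52506 that all 3 count tables list. The members were chosen by name, without a cut on any measured value, but with earlier results of these data known. They are 4 receptor chains, 7 coreceptors and other surface molecules, 4 proximal kinases and 7 adaptors. The rest are 8 downstream enzymes and exchange factors, 3 NFAT transcription factors and 10 negative regulators. All 43 were found by Ensembl gene ID in every table, and all 43 passed the filter on low counts in every comparison.

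When the receptor binds antigen, the coreceptor-bound kinase Lck phosphorylates the CD3 and zeta chains, and Zap70 docks there and phosphorylates the adaptors Lat and Lcp2 (SLP-76). These adaptors hold phospholipase C gamma and exchange factors, which open the calcium, Ras and NF-kB routes, and calcium sends NFAT proteins to the nucleus. Kinases, phosphatases, ubiquitin ligases and diacylglycerol kinases restrain each step. Adenosine acts on T cells mainly through the A2a receptor, which raises cyclic AMP, a second messenger known to dampen this pathway.

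The cells were mouse double negative T cells (DNT cells), made by converting CD4+ T cells of wild type spleen and lymph node. All 18 libraries, 3 per group, came from cells stimulated with antibodies to CD3 and CD28, so no group is without receptor stimulation. In the first table cells without ligand (WT) were compared with cells given 400 µM ATPgs, an ATP analogue that resists hydrolysis, for 6 h (WTATPgs). The second compared cells without ligand (DNT) with cells given 400 µM adenosine for 6 h (ADO), and the third compared cells given 250 nM of an A2a receptor (A2aR) inhibitor alone (R) with cells given the inhibitor and 400 µM adenosine for 6 h (RA). The labels name neither the inhibitor nor the number of animals, and they do not say whether the 3 libraries of a group were separate cultures, so the p-values given below speak of library-to-library spread, which may be technical. In bulk RNA, fewer cells of a type and less RNA per cell cannot be told apart.

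Libraries held 20156082 to 24331577 counts. Replicates of WT, DNT and ADO differed from each other by 1.87 to 2.38 chi-square units per degree of freedom, where sampling noise alone gives about 1. WTATPgs replicate 3 stood apart from replicates 1 and 2 (25.3 and 25.4, against 1.65 between those 2), and the 3 R libraries stood apart from each other (43.8 to 210). RA replicates differed by 3.88 to 6.81. In WTATPgs replicate 3 the 4 gamma delta T cell markers summed to 422 CPM, against 159.5 and 168 in its other replicates and 133 to 138 in WT. CPM, the usual unit of library-scaled counts, is a gene's count relative to the total of its library after scaling by the TMM factor.

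Levels of the members spanned a wide range within every group. Compared per kilobase of merged exon, Thy1, a glycoprotein of the T cell surface, was the highest member in all 6 groups, from 489 CPM per kb in WT to 644 in R. Lcp2, Lat and Zap70 came next in WT, at 171, 118 and 114 CPM per kb. The receptor chains Cd3d and Cd3g stood at 106 and 68.3 CPM per kb in WT, and Cd3e at 33.7. At the low end of WT were Ubash3a (0.677 CPM per kb), a negative regulator related to phosphatases, Cd4 (2.31) and Cd5 (2.45). Cd4 was the lowest member per kb in DNT, ADO, R and RA, at 0.277, 0.128, 0.364 and 0.102. The median member stood at 123 CPM in WT, 147 in DNT and 82.1 in R.

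Cd4 and Cd8a encode the coreceptors that double negative T cells are named for lacking at the surface. Both transcripts were low but above 0 in all 18 libraries. Cd4 averaged 9.33 CPM over the WT libraries (SD 1.38, n = 3), 2.14 in WTATPgs (SD 0.853), 1.12 in DNT (SD 0.253), 0.514 in ADO (SD 0.142), 1.47 in R (SD 0.558) and 0.413 in RA (SD 0.101). The order was therefore WT, WTATPgs, R, DNT, ADO and RA. Single libraries of R overlapped those of WTATPgs and DNT, and ADO overlapped RA, while every WT library lay above all others. Between the ligand-free groups of separate tables Cd4 was 8.35 times higher in WT than in DNT. Cd8a averaged 11.7 CPM in WT (SD 0.643), 5.66 in WTATPgs (SD 2.05), 23.5 in DNT (SD 1.05), 16.8 in ADO (SD 1.44), 6.59 in R (SD 0.516) and 6.61 in RA (SD 0.14). Its levels in DNT thus lay above those of every other group, and those of R and RA overlapped. Cd8b1, the partner chain of Cd8a in cytotoxic T cells, stayed between 1.24 and 2.39 CPM on average in all groups. Trac, the constant region of the receptor's alpha chain, had 184 CPM in WT and 197 in DNT, and read 92.2 to 105 in R. Trdc, that of the delta chain, had 30.1 in WT and 2.49 in DNT, and read 40.4 to 48.3 in R. Trbc2, a constant region of the beta chain, read 265 to 275 CPM in DNT and 359 to 655 in R. The tables were normalised separately, so levels set across them are descriptions without a test.

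**Figure D1:**
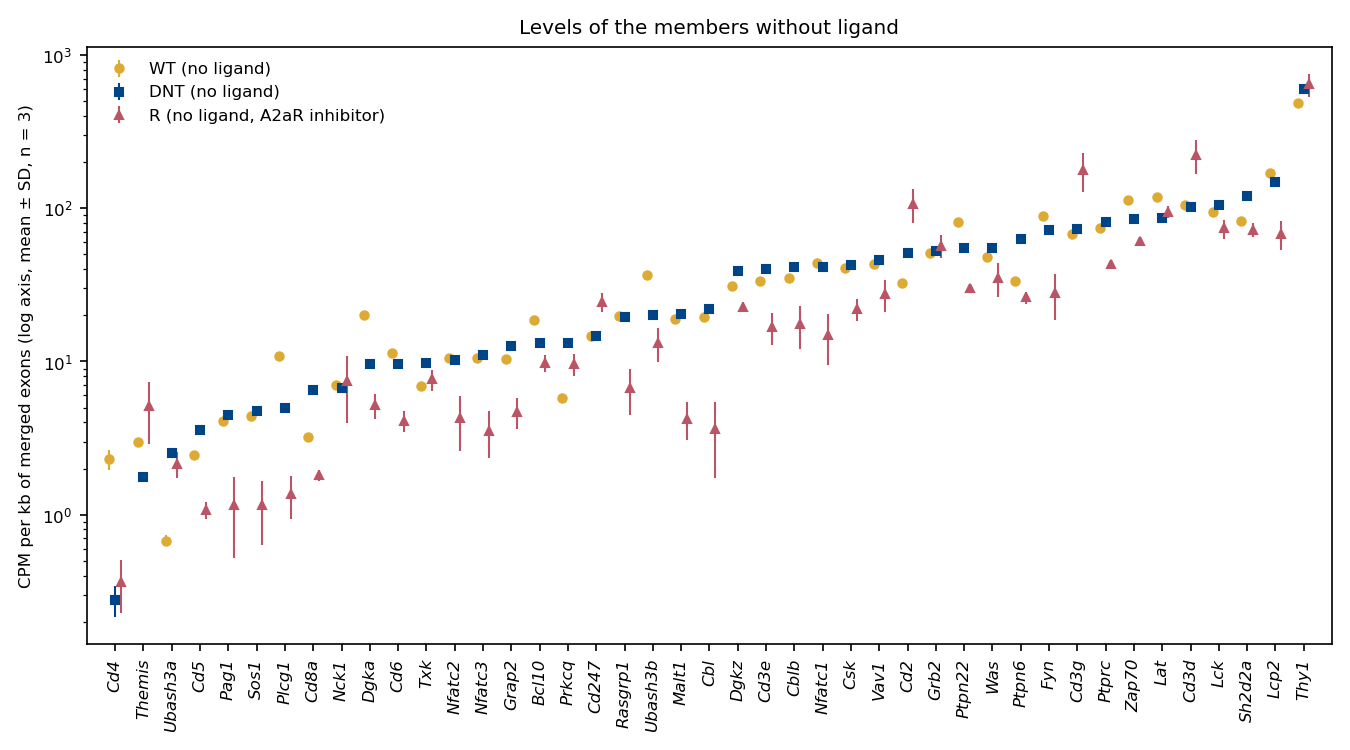
Level of each of the 43 members in the groups without ligand (WT, DNT, and R with inhibitor), in CPM per kilobase of merged exon on a log axis, as mean and SD of 3 libraries, ordered by the DNT level. Thy1 is the highest member in all 3 groups, and Cd4 is the lowest in DNT and R.

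The ligand-free groups also differed in other members. Ubash3a was 3.72 times higher in DNT than in WT and Prkcq, the protein kinase C isoform of the immune synapse, 2.29 times higher. Plcg1, the phospholipase that Lat recruits, was 2.17 times lower in DNT, and Dgka, a diacylglycerol kinase, 2.09 times lower. R lay further from DNT: 33 of 43 members were lower in R and 10 higher, with a median log2 ratio of −0.87. Ratios between tables were taken for the members only, so a shift of all genes cannot be told apart from one of the members. Cbl, Malt1, Sos1 and Pag1 were 6.11, 4.84, 4.13 and 3.92 times lower in R, while Themis, Cd3g, Cd3d and Cd2 were 2.89, 2.42, 2.18 and 2.09 times higher. Across the 43 members this ratio had a Spearman correlation of −0.44 with merged exon length, a description over genes of the same libraries; for DNT over WT it was 0.0003. R and DNT differ in both table and inhibitor, which cannot be told apart. The ratios also rest on widely spread R libraries. Over the members the median SD was 23.4% of the mean in R, against 1.97% in DNT. Cbl read 35.7, 70.7 and 26.9 CPM in R, and Themis 51.4, 39.1 and 88.7.

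With ATPgs 5 of the 7 surface molecules fell, Cd4 most, and the larger changes elsewhere were falls of Malt1, Fyn and Lat and rises of Pag1 and Txk. In all 5 of 43 members rose (Txk, Sh2d2a, Rasgrp1, Nfatc3 and Pag1) and 14 fell, by edgeR's quasi-likelihood test with Benjamini-Hochberg adjusted p under 0.05. The share that passed, 44.2%, stood beside 37.1% of all genes tested, 17.7% higher and 19.4% lower. Among genes with a mean of at least 10 CPM it was 16 of 39 members, or 41.0%, beside 48.6%. The members' median log2 fold change was −0.09, and that of all genes tested was −0.0006. Of the 43 members 19 passed, 10 of the 43 with a change of at least 0.5 on the log2 scale. Of all genes tested 14.3% passed with a change of that size.

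None of the 4 receptor chains passed the test. Cd3d and Cd3g changed by −0.02 ± 0.04 and 0.10 ± 0.08 in log2 fold change, where ± is the SE of a comparison of 3 against 3 libraries here and throughout. Cd247, the zeta chain, read 77.9, 76.4 and 78.8 CPM in WT and 96.7, 93.6 and 163 in WTATPgs. The groups did not overlap, but the difference of 0.60 ± 0.24 did not pass (adjusted p = 0.12), and the highest value was in replicate 3. Merged exons of Cd247 (chr1:165788681-165877277 of GRCm38, plus strand) share 56.4% of their bases with Pou2f1 on the opposite strand. The strand setting of the counting is not given in the sources used here, so reads of Cd247 and Pou2f1 cannot be told apart there.

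Of the 7 surface molecules 5 fell and none rose, with a median of −1.05. Cd4 (chr6:124864692-124888221, minus strand) read 8.40, 10.9 and 8.67 CPM in WT and 3.12, 1.70 and 1.59 in WTATPgs, that is 182 to 237 counts against 39 to 72. It fell by 2.13 ± 0.26 on the log2 scale (adjusted p = 0.000454), the largest change of the module. Every WT library was above every treated one. Cd8a (chr6:71373427-71379173, plus strand) read 11.0, 12.1 and 12.1 CPM in WT and 6.84, 6.85 and 3.30 with ATPgs. It fell by 1.05 ± 0.26 (adjusted p = 0.0179). The groups did not overlap, yet the call was lost without WT replicate 2 or 3 (adjusted p up to 0.0608), and the lowest value was again in WTATPgs replicate 3.

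Cd5 and Cd6 are neighbouring genes on chromosome 19 that encode related scavenger receptors which temper receptor signals. Cd5 (chr19:10717116-10739002, minus strand) read 12.4, 11.6 and 12.2 CPM in WT and 7.02, 5.80 and 4.60 in WTATPgs. Cd6 (chr19:10789341-10830058, minus strand) read 92.0, 91.0 and 89.5 CPM against 44.6, 44.7 and 30.5. Both groups were clear of each other for both genes, with falls of 1.06 ± 0.15 for Cd5 (adjusted p = 0.000837) and 1.19 ± 0.15 for Cd6 (adjusted p = 0.00166). Ptprc, the phosphatase CD45, fell by 0.28 ± 0.03. Cd2, an adhesion molecule, and Thy1 did not pass, at −0.15 ± 0.07 and 0.02 ± 0.04.

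The proximal kinases split. Fyn, a Src family kinase that acts beside Lck, read 399, 389 and 384 CPM in WT and 257, 254 and 247 in WTATPgs. It fell by 0.63 ± 0.03 (adjusted p = 6.41e-06), and no library overlapped. Txk, a Tec family kinase (chr5:72695978-72752777, minus strand), read 72.5, 77.3 and 76.98 CPM in WT and 124, 123 and 108 with ATPgs, also without overlap. Txk rose by 0.65 ± 0.06 (adjusted p = 0.000108). Lck (−0.14 ± 0.10) and Zap70 (−0.06 ± 0.03) did not pass.

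Among the adaptors Lat and Lcp2 fell and Sh2d2a, an adaptor that binds Lck, rose by 0.15 ± 0.03. Lat (chr7:126363824-126369570, minus strand) read 334, 321 and 324 CPM in WT and 218, 215 and 234 in WTATPgs. It fell by 0.55 ± 0.04 (adjusted p = 3.51e-05), with every treated library below every control. Lcp2 read 777, 764 and 748 CPM against 552, 551 and 524, a fall of 0.49 ± 0.03. Grap2, the adaptor that joins Lat to Lcp2, had 66.4, 62.0 and 64.8 CPM in WT and 69.5, 73.9 and 110 with ATPgs. Its difference of 0.39 ± 0.19 did not pass, and replicate 3 was the highest. Grb2, Themis and Nck1 lay between −0.08 and 0.12.

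Downstream, Malt1, the protease of the complex that carries the signal to NF-kB, read 334, 350 and 337 CPM in WT and 218, 222 and 207 with ATPgs. It fell by 0.66 ± 0.04 (adjusted p = 9.94e-06). Its partner Bcl10 did not pass (0.03 ± 0.05). Rasgrp1, a Ras exchange factor driven by diacylglycerol, rose by 0.22 ± 0.05, and Prkcq fell by 0.17 ± 0.06. The other 4 of the 8 downstream genes, Plcg1, Vav1, Sos1 and Was, lay between −0.13 and 0.21 and did not pass. Nfatc1, the NFAT gene that receptor signals themselves induce, read 323, 331 and 329 CPM in WT and 240, 236 and 211 in WTATPgs. It fell by 0.51 ± 0.05 (adjusted p = 0.000134), Nfatc3 rose by 0.13 ± 0.04 and Nfatc2 did not pass (0.06 ± 0.07).

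Of the 10 negative regulators 1 rose and 3 fell. Pag1, a membrane adaptor that brings the inhibitory kinase Csk to the Src kinases, read 37.9, 39.1 and 40.7 CPM in WT and 67.0, 65.7 and 58.5 with ATPgs. It rose by 0.70 ± 0.06 (adjusted p = 7.96e-05), the largest rise of the module that passed, with no overlap. The phosphatase gene Ptpn6 (SHP-1) fell by 0.25 ± 0.04, the diacylglycerol kinase gene Dgkz by 0.24 ± 0.04 and the ubiquitin ligase gene Cbl by 0.18 ± 0.05. Csk and Cblb changed by −0.02 ± 0.04 and −0.02 ± 0.03. Ptpn22, Dgka, Ubash3a and Ubash3b did not pass, at 0.13, −0.17, −0.50 and −0.15.

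**Figure D2:**
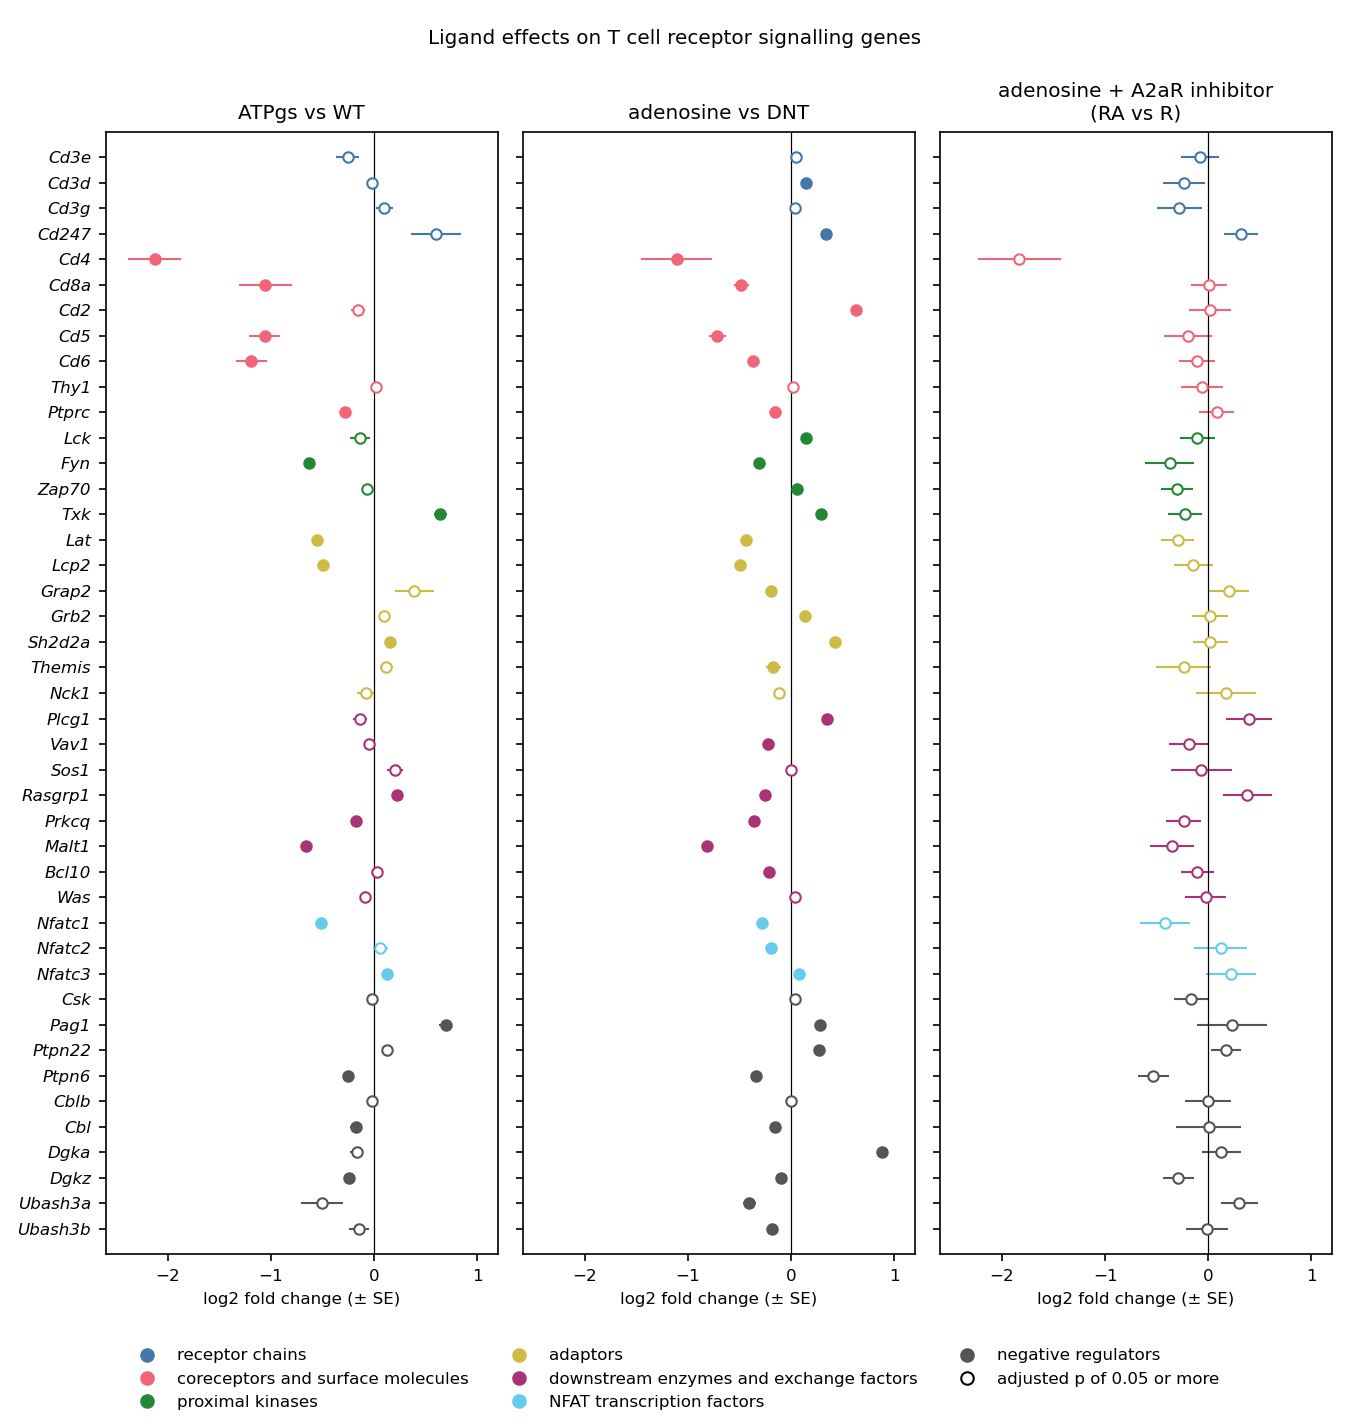
Log2 fold change of each member (points, with bars of 1 SE) for ATPgs against WT, adenosine against DNT, and adenosine with the A2aR inhibitor (RA against R), members ordered by role. Filled points passed an adjusted p of 0.05: 19 members in the first comparison, 35 in the second and 0 in the third.

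Several of these results moved with WTATPgs replicate 3. Without it 10 members rose and 24 fell, beside 53.8% of all genes, and all 19 earlier calls were kept. Cd3e then fell by 0.41 ± 0.03, Cd2 by 0.23 ± 0.05 and Ubash3a by 0.79 ± 0.14. Cd247 passed with a smaller rise, 0.29 ± 0.04, and Cd8a and Cd6 fell by 0.78 ± 0.11 and 1.03 ± 0.04. The 8 myeloid markers summed to 17.9 to 18.9 CPM in WT and to 82.5, 84.1 and 26.9 in WTATPgs, with 4 of 8 higher by the test. The 6 B cell markers summed to at most 7.38 CPM in WT and to 18.1, 19.3 and 4.76, with 1 of 6 higher. None of the 4 gamma delta markers passed and none was at 0, and Trdc alone read 26.5, 26.4 and 131 CPM with ATPgs. The part of these markers in the members' results was not tested.

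With adenosine and no inhibitor, Cd4, Malt1 and Cd5 fell most and Dgka and Cd2 rose most. In all 13 of 43 members rose and 22 fell, 81.4% in all, beside 50.2% of all genes tested, 25.5% higher and 24.6% lower. Among genes with a mean of at least 10 CPM the shares were 34 of 42 members, or 81.0%, and 63.9%. The members' median was −0.11 and that of all genes 0.002. Of the 43 members 35 passed, 5 of the 43 with a change of at least 0.5. Of all genes tested 14.2% passed with a change of that size. Genes listed as markers of other cell types moved as well, though bulk RNA does not show which cells held these transcripts. The 4 gamma delta markers summed to 103 to 107 CPM in DNT and 129.6 to 135 in ADO, with 3 of 4 higher by the test. Trdc did not rise, at 2.47 to 2.50 CPM in DNT and 2.06 to 2.51 in ADO. The 3 NK markers summed to 369.6 to 377.5 and 273.5 to 290.6 CPM, and both of those tested fell. Nearly all of this sum was Eomes, at 367, 372 and 365 CPM in DNT and 285, 288 and 270 in ADO. Klrb1c read 4.60 to 6.95 CPM in DNT and 2.48 to 3.13 in ADO. Ncr1 read at most 0.179 CPM in DNT and 0.132 in ADO and was not tested. The 8 myeloid markers summed to 10.96 to 12.3 and 16.7 to 20.7 CPM, and of the 5 tested 3 rose and 1 fell. For these 3 lists the sums of DNT and ADO did not overlap. The 6 B cell markers summed to at most 2.51 and 2.69 CPM, Pax5 was at 0 in every DNT library, and neither of the 2 tested passed. The part of these markers in the members' results was not tested.

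Of the receptor chains Cd3d and Cd247 rose, by 0.15 ± 0.03 and 0.34 ± 0.04, and Cd3e (0.05 ± 0.03) and Cd3g (0.04 ± 0.02) did not pass. Cd247 read 79.2, 79.5 and 75.4 CPM in DNT and 101, 97.2 and 97.5 in ADO.

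Among the surface molecules 5 fell and 1 rose. Cd4 read 1.07, 1.39 and 0.893 CPM in DNT and 0.576, 0.614 and 0.353 in ADO, or 20 to 30 counts against 8 to 14. It fell by 1.11 ± 0.34 (adjusted p = 0.00617), without overlap. The call rests on these few counts and was lost without DNT replicate 2 or ADO replicate 3 (adjusted p up to 0.0564). Cd8a read 22.6, 23.2 and 24.7 CPM in DNT and 15.5, 18.3 and 16.7 in ADO, a fall of 0.48 ± 0.07 (adjusted p = 1.63e-07). Cd5 read 18.1, 16.7 and 18.0 CPM against 11.4, 9.96 and 10.8, and fell by 0.72 ± 0.08. For Cd8a and Cd5 alike every ADO library was below every DNT library. Cd6 fell by 0.37 ± 0.04 and Ptprc by 0.15 ± 0.02. Cd2 (chr3:101275899-101287939, minus strand) moved the other way, from 88.7, 87.3 and 90.8 CPM to 136, 138 and 138. It rose by 0.63 ± 0.03 (adjusted p = 1.08e-22), with a wide gap between the groups.

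All 4 proximal kinases passed, with small changes. Fyn read 326, 316 and 302 CPM in DNT and 262, 250.4 and 247 in ADO and fell by 0.32 ± 0.03. Txk read 110.1, 104 and 108 CPM against 132, 132 and 131 and rose by 0.29 ± 0.03. Lck rose by 0.14 ± 0.02 and Zap70 by 0.06 ± 0.02, the latter with an adjusted p of 0.038 that 7 of 13 alternatives did not keep under 0.05. Of the adaptors Lat, Lcp2, Grap2 and Themis fell and Grb2 and Sh2d2a rose. Lat read 235, 240.0 and 240.1 CPM against 175, 181 and 171, a fall of 0.44 ± 0.03. Lcp2 read 667, 664 and 665 CPM against 482, 470.1 and 460.4, a fall of 0.50 ± 0.02. Both adaptors that Zap70 phosphorylates thus had no ADO library as high as the lowest DNT library. Sh2d2a rose by 0.43 ± 0.02, and Themis, with a fall of 0.17 ± 0.07, lost its call in 8 of 13 alternatives.

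Malt1 had the largest fall after Cd4. It read 370, 367 and 375 CPM in DNT and 213, 213 and 205 in ADO, and fell by 0.82 ± 0.02 (adjusted p = 4.86e-33), with no overlap. Bcl10, Prkcq, Rasgrp1 and the exchange factor Vav1 also fell, by 0.22 to 0.36. Plcg1 rose by 0.35 ± 0.05 and Sos1 and Was did not pass. Nfatc1 fell by 0.28 ± 0.02 and Nfatc2 by 0.20 ± 0.03, and Nfatc3 rose by 0.08 ± 0.03.

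Of the 10 negative regulators 3 rose and 5 fell. Dgka (chr10:128720134-128744855, minus strand) turns diacylglycerol into phosphatidic acid and so removes the activator of Rasgrp1 and Prkcq. It read 48.5, 45.1 and 43.5 CPM in DNT and 85.8, 83.3 and 83.4 in ADO. It rose by 0.88 ± 0.04 (adjusted p = 1.83e-23), the largest rise of the module, and the lowest ADO library was far above the highest DNT library. Pag1 (chr3:9687479-9833679, minus strand) rose by 0.28 ± 0.05, from 42.9, 42.7 and 43.6 CPM to 52.6, 50.6 and 53.7. Ptpn22, a phosphatase that works with Csk, rose by 0.27 ± 0.02. Ptpn6, Cbl, Dgkz, Ubash3a and Ubash3b fell, by 0.34, 0.15, 0.10, 0.41 and 0.19. Csk and Cblb did not pass. With scaling by library size alone, Dgkz and Themis lost their calls and 6 further members were called higher. This gave 19 higher and 20 lower, beside 30.4% of all genes higher and 19.6% lower.

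**Figure D3:**
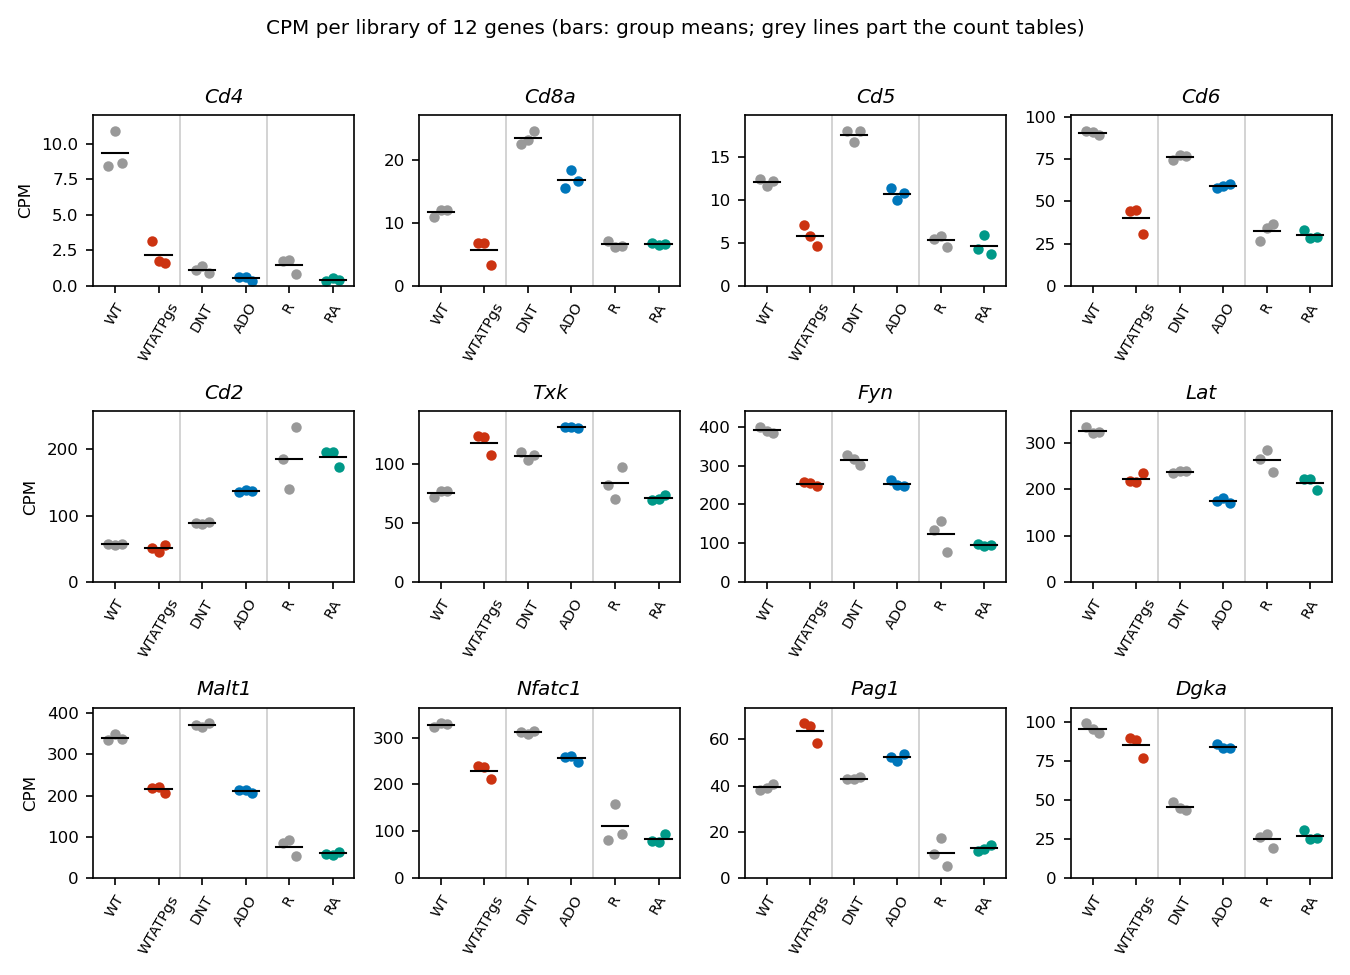
CPM in each of the 18 libraries for the 12 members that passed the test with a change of at least 0.5 on the log2 scale under ATPgs or adenosine, 3 points per group and a bar at each mean, on linear axes from 0. Cd4 is highest in WT, and Dgka and Cd2 are higher in all 3 ADO than in all 3 DNT libraries.

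Proximal kinases and adaptors were compared with negative regulators as groups. With ATPgs 2 of the 11 kinases and adaptors rose and 3 fell, with a median of −0.06, and of the 10 negative regulators 1 rose and 3 fell, with a median of −0.16. These are 45.5% and 40% of the 2 groups, beside 37.1% of all genes. With adenosine 5 rose and 5 fell among the kinases and adaptors (median −0.11), and 3 rose and 5 fell among the negative regulators (median −0.05). These are 90.9% and 80% of the 2 groups, beside 50.2% of all genes. Both groups thus held rises and falls under both ligands. Per library, the median member of the kinases and adaptors lay −0.04, −0.01 and 0.03 from the WT mean in WTATPgs and −0.14, −0.14 and −0.04 from the DNT mean in ADO. The corresponding medians of the negative regulators were −0.06, −0.09 and −0.15, and −0.06, −0.02 and −0.06. These distances are on the log2 scale of CPM plus 0.5. In R the 3 libraries ran from −0.19 to 0.12 for kinases and adaptors and from −0.28 to 0.25 for negative regulators, a wider spread than any ligand shift of these medians.

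**Figure D4:**
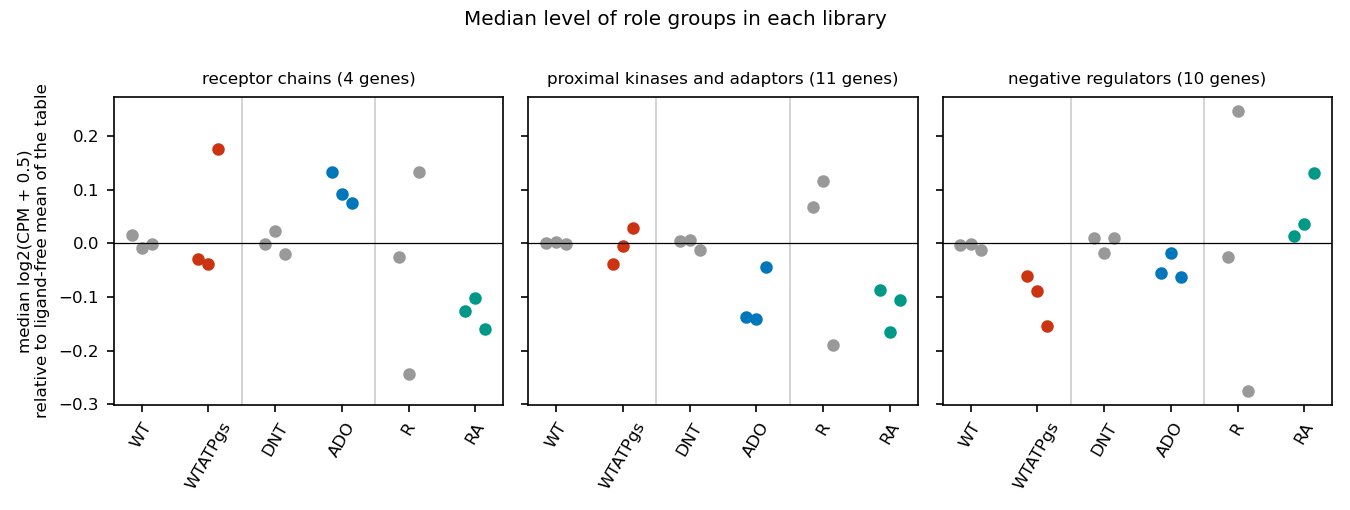
Median over members of log2 (CPM + 0.5) relative to the mean of the ligand-free libraries of the same table, 1 point per library, for receptor chains (4 genes), kinases and adaptors (11) and negative regulators (10). The R libraries run from −0.28 to 0.25 for negative regulators, wider than the shifts in WTATPgs and ADO.

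Many members moved the same way under both ligands. Of 43 members 4 rose in both comparisons (Txk, Sh2d2a, Nfatc3 and Pag1), beside 11.5% of the 14053 genes tested in both. Another 14 fell in both, beside 13.6%: Cd4, Cd8a, Cd5, Cd6, Ptprc, Fyn, Lat, Lcp2, Prkcq, Malt1, Nfatc1, Ptpn6, Cbl and Dgkz. Only Rasgrp1 passed in opposite directions, higher by 0.22 with ATPgs and lower by 0.25 with adenosine, beside 2.01% of all genes. The 18 members with the same direction were 94.7% of those called with ATPgs and 51.4% of those called with adenosine, and for all genes these shares were 64.9% and 48.8%. Among genes called in both comparisons, 94.7% of members and 92.6% of all genes had the same direction. The comparisons used separate control libraries.

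The size of the effect was tested for a difference between the ligands in 12 libraries. Of 43 members 6 were higher and 8 lower with ATPgs relative to adenosine, beside 17.3% of all genes, 8.13% higher and 9.12% lower. Dgka differed most, by −1.04 ± 0.08 (adjusted p = 1.62e-07), at −0.17 with ATPgs and 0.88 with adenosine. Cd6 differed by −0.81 ± 0.15, Cd2 by −0.77 ± 0.08 and Plcg1 by −0.48 ± 0.09. Fyn, Sh2d2a, Nfatc1 and Ptprc were also lower, by −0.31, −0.27, −0.23 and −0.12. Rasgrp1, Pag1 and Txk were higher with ATPgs by 0.48 ± 0.06, 0.42 ± 0.07 and 0.36 ± 0.06, and Themis, Bcl10 and Malt1 by 0.30, 0.26 and 0.16. The differences for Cd4 (−1.02 ± 0.43, adjusted p = 0.115) and Cd8a (−0.57 ± 0.26, adjusted p = 0.165) did not pass. Ptprc and Themis lost their calls in 10 of 19 alternatives and Malt1 in 5. Ligand and table cannot be told apart here, since each ligand was given in its own table.

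**Figure D5:**
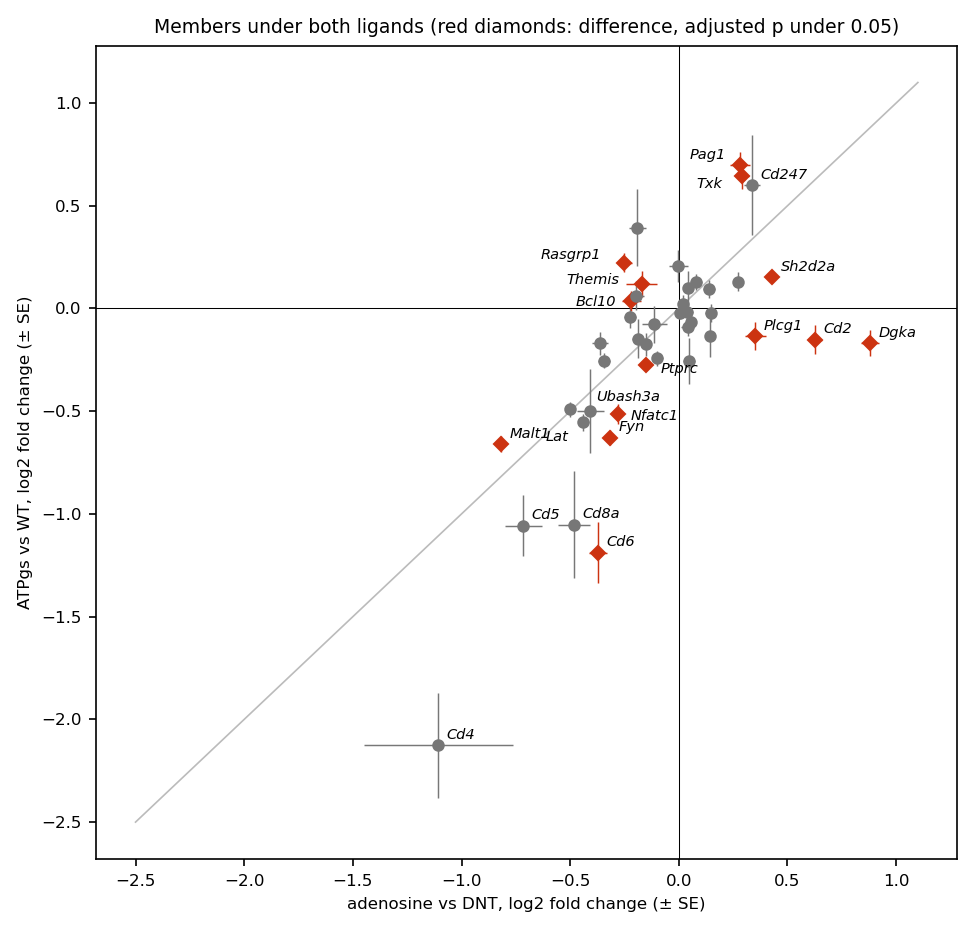
Log2 fold change with ATPgs (vertical axis) against that with adenosine (horizontal axis) for the 43 members, bars of 1 SE, with a line of equal effects. Red diamonds mark the 14 members whose effects differed, Dgka farthest to the right at 0.88 with adenosine and −0.17 with ATPgs.

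Promoters are shown for 2 members that rose and 2 that fell with adenosine, chosen after their values were seen, as a description of sequence around their starts. RefSeq windows of 300 bases, from 250 before to 50 after a transcript start (GRCm38.p6), matched 35 of 43 members, with 52 windows in all. Both strands were searched for the cyclic AMP response element TGACGTCA, for its core TGACG, which it contains, and for GGAAA, the core that NFAT proteins bind. The full element was in 1.79% of all 32851 windows and in 1 member window, of Zap70. The core TGACG was in 20.8% of all windows and in 7 of 52 member windows (13.5%), of Cd3e, Dgka, Nck1, Nfatc3, Txk and Zap70. GGAAA was in 61.3% of all windows and in 38 member windows (73.1%). Shown 5′ to 3′ on the gene's strand are 1 window each of Txk (chr5:72752728-72753027, minus strand), which rose under both ligands, and Dgka (chr10:128744027-128744326, minus strand), which rose with adenosine and did not pass with ATPgs. Beside them stand Lat (chr7:126369519-126369818, minus strand) and Lcp2 (chr11:34046678-34046977, plus strand), which fell under both. Capitals mark TGACG, here on the opposite strand and so read as CGTCA.
Txk: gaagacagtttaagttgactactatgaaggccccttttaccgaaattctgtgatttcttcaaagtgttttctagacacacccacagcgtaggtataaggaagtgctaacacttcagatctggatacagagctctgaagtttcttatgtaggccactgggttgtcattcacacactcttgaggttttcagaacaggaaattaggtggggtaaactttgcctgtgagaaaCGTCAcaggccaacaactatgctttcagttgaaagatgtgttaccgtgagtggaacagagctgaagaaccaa
Dgka: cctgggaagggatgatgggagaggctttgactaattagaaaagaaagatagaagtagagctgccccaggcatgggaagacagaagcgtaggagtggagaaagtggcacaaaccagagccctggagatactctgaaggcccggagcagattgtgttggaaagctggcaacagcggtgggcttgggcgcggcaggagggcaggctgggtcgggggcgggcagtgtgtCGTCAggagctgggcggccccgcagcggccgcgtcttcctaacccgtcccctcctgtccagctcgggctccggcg
Lat: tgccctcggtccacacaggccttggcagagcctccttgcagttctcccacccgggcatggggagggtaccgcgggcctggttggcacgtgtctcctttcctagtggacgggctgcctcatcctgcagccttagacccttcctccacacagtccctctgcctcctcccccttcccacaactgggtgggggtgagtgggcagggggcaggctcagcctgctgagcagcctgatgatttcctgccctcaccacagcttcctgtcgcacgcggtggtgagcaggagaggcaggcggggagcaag
Lcp2: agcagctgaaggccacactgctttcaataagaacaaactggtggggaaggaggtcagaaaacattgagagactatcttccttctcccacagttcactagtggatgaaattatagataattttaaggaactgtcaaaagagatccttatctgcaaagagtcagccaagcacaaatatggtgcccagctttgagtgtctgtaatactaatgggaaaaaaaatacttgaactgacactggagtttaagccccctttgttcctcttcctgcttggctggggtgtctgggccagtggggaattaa
Txk and Dgka each hold 1 such core in the window shown, and Lat and Lcp2 hold none. Of the 13 members that rose with adenosine 10 had a window, and 4 of these held the core (Dgka, Nfatc3, Txk and Zap70). The windows of the other 6, Cd3d, Cd247, Lck, Grb2, Plcg1 and Ptpn22, held none. Both risers shown above are thus from those with the core. The rises of Zap70 and Nfatc3 were small, and their calls were lost in several alternatives. Of the 22 that fell 18 had a window and none held the core, and of the 8 that did not pass it was in 2 of 7, Cd3e and Nck1. The same split was not made over all genes. The 20.8% above is a share of windows, while these counts are of members, some with several windows. The second window of Txk has none, and of the 4 windows of Dgka another, overlapping one holds the same core. A match describes letters only, and no binding was measured.

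With the A2aR inhibitor present, no member passed the test for adenosine. In RA against R 0 of 43 members were called by edgeR's quasi-likelihood test, beside 1.14% of all genes tested, 0.287% higher and 0.855% lower, and 0.903% of genes with a mean of at least 10 CPM. At an unadjusted p under 0.05 there were 2, Cd4 and Ptpn6. DESeq2 called 2 lower (Cd4 and Ptpn6), beside 4.14% of all genes tested. The fit by limma-voom with sample quality weights called 4 higher and 6 lower, beside 22.2% of all genes. The members' median was −0.07 and that of all genes −0.04. The spread of R limits this comparison, since the SE of the members ran from 0.15 to 0.40, against 0.02 to 0.34 in the adenosine comparison without inhibitor.

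Cd4 read 1.76, 1.83 and 0.827 CPM in R and 0.328, 0.524 and 0.388 in RA, that is 14 to 45 counts against 7 to 12. The groups did not overlap, and the difference of −1.83 ± 0.40 had an adjusted p of 0.0695. Cd8a read 7.18, 6.21 and 6.38 CPM against 6.74, 6.47 and 6.63, which overlapped (0.01 ± 0.17). Ptpn6 read 78.3, 75.9 and 66.1 CPM in R and 52.5, 51.7 and 48.1 in RA, without overlap, at −0.53 ± 0.15 (adjusted p = 0.147). The other members whose groups did not overlap were Zap70, Lat, Dgkz and Ptpn22, and none of them passed. How many of all genes tested had groups without overlap was not counted, in this comparison or the others. Dgka, the largest rise with adenosine alone, read 26.2, 28.5 and 19.6 CPM in R and 30.7, 24.8 and 25.8 in RA, an overlap (0.13 ± 0.19). Malt1 read 85.9, 91.2 and 52.5 CPM against 58.6, 57.1 and 64.0 and also overlapped, at −0.35 ± 0.21.

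Without R replicate 3, whose TMM factor of 0.817 was the lowest of all 18, 1 member rose and 6 fell, beside 13.0% of all genes. Nck1, an adaptor to the actin machinery, rose by 0.60 ± 0.16. Cd4 fell by 2.099 ± 0.357, Fyn by 0.62 ± 0.12, Ptpn6 by 0.60 ± 0.11, Malt1 by 0.57 ± 0.11, and Prkcq and Lat by 0.37 each. Dgka changed by −0.02 ± 0.14 and Cd2 by 0.21 ± 0.13 in that fit. The gamma delta markers summed to 255, 197 and 421 CPM in R and 315 to 328 in RA, and their part in the result was not tested.

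Whether the adenosine effect differed with and without inhibitor was tested over the 12 libraries of both tables. Of 43 members 1 was higher and 1 lower, beside 4.05% of all genes, 0.909% higher and 3.14% lower. Dgka differed by −0.76 ± 0.17 (adjusted p = 0.0221), from a rise of 0.88 without inhibitor to 0.13 with it. Ubash3a differed by 0.70 ± 0.16 (adjusted p = 0.0274), from −0.41 to 0.30. It read 26.8, 29.2 and 28.9 CPM in DNT and 21.4, 21.2 and 21.3 in ADO, then 22.8, 29.1 and 20.1 in R and 31.3, 29.2 and 28.4 in RA. The last 2 groups overlapped in R replicate 2. These calls were lost in 10 (Dgka) and 11 (Ubash3a) of 19 alternatives, with adjusted p up to 0.234 and 0.17. They were lost without any 1 library of DNT or ADO, and without RA replicate 2 or 3, and for Ubash3a also without RA replicate 1. For Cd2, whose difference was −0.64 ± 0.23, and Malt1 (0.46 ± 0.20) the adjusted p was 0.155 and 0.248. Inhibitor and table cannot be told apart in this difference.

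The pathway's other genes were read from a list of 57 further T cell receptor pathway genes, 56 of them tested. With ATPgs 14 rose and 11 fell, 44.6% in all beside 37.1% of all genes, with a median of −0.01. Pak1, a kinase of the actin route, rose by 2.37 ± 0.20, from 2.35, 1.89 and 1.81 CPM to 11.3, 12.2 and 7.85. Sit1, an inhibitory transmembrane adaptor, and Sla2, an adaptor that limits receptor signals, rose by 1.03 ± 0.16 and 0.82 ± 0.10. Tagap, a GTPase-activating protein gene, fell by 1.08 ± 0.19, from 231, 239 and 231 CPM to 93.7, 94.6 and 144. Grap, a Grb2-like adaptor, fell by 0.63 ± 0.07 and Tespa1 by 0.62 ± 0.10. With adenosine 18 rose and 20 fell, 67.9% in all beside 50.2% of all genes, with a median of −0.02. Nck2, Mapk3 (the kinase ERK1) and Sla rose by 0.72 ± 0.11, 0.68 ± 0.06 and 0.52 ± 0.02. Tagap and Grap fell here too, by 0.66 ± 0.03 and 0.41 ± 0.03.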

How the data were processed

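RNA-seq was read from 3 deposited tables of counts per Ensembl gene, whole numbers with 1 column per library and 6 libraries per table. The authors aligned reads with HISAT2 2.1.0 to GRCm38, per the submitters' processing notes. The counting tool and annotation release were not given in the sources used here, nor was the strand setting. Groups came from the labels. Symbols, coordinates and merged exon lengths came from GENCODE M21, which named 99.7%, 99.8% and 99.8% of the IDs.

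Each ligand was compared with its ligand-free group in a fit of 6 libraries with edgeR 4.0.16 (R 4.3.3; TMM factors, filterByExpr, robust quasi-likelihood F test, two-sided). P-values were adjusted by Benjamini-Hochberg over all genes tested, threshold 0.05. Differences between effects were contrasts in fits of 12 libraries. The SE is the size of the log2 fold change over the square root of F. CPM values use the TMM factors. The tests were tested on simulated data.

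Values are given for each library for Cd4, Cd8a and members that passed with a log2 fold change of at least 0.5; other members described that way (Cd247, Grap2, Lcp2, Ptpn6 and Ubash3a) were added after their values were seen. Of the other pathway genes, the 3 largest rises and falls with a mean of at least 5 CPM were named, except for items not reported here. The members and lists were chosen with earlier results of these data known. Deviations of replicates with the same number had correlations of at most 0.07, so the main fits have no block. As alternatives, size factors by RLE or library size alone, DESeq2 1.42.0, limma-voom (limma 3.58.1), other filters, a replicate block and the removal of each library were run.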

Additional observations from a re-analysis of the deposited data

Results flagged for a closer look

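The test of the adenosine effect with minus without A2aR inhibitor picked out 2 members whose effects differed. They are 4.65% of the members, beside 4.05% of all genes tested, and both calls were lost in many alternatives, as given above. Of the 56 other pathway genes tested 3 were lower, Mapk3 and Fyb among them, or 5.36% beside 3.14% of all genes. The log2 difference was −0.76 for Dgka and 0.70 for Ubash3a. It was −1.14 for Mapk3 and −0.77 for Fyb, an adaptor that binds Lcp2. Mapk3 rose by 0.68 with adenosine alone and read −0.45 ± 0.18 with the inhibitor, and Fyb rose by 0.47 and read −0.28 ± 0.20, neither passing there. Inhibitor and table cannot be told apart.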

How the results depend on the processing

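No member changed direction after being called, under any alternative run. With ATPgs the main counts were 5 higher and 14 lower. They became 8 higher with library size only, and 10 higher and 23 lower with limma-voom. They ran from 4 to 10 higher and from 11 to 24 lower when 1 library was left out. Of all genes 52.0% were called with limma-voom and 24.9% to 53.8% with 1 library left out, beside 37.1% in the main fit. Library size only put 58.1% of all called genes on the higher side, beside 47.7%, and called 8 members higher and 12 lower. In RA against R (0 and 0) DESeq2 called 2 lower, limma-voom 4 higher and 6 lower, and the fit with no filter on low counts 1 lower. Of all genes these called 4.14%, 22.2% and 2.04%, beside 1.14% in the main fit. Leaving out 1 library gave 0 to 1 higher and 0 to 6 lower, beside 0.274% to 13.0% of all genes. Library size only moved the median of all genes there from −0.04 to 0.09. For the adenosine effect with minus without inhibitor (1 and 1), library size only called 0 higher and 0 lower and the replicate block 0 and 0. There DESeq2 called 2 higher and 3 lower and limma-voom 10 and 9. Of all genes these 4 fits called 1.60%, 1.07%, 9.27% and 23.0%, beside 4.05% in the main fit. Leaving out 1 library gave 0 to 7 higher and 0 to 5 lower, beside 1.83% to 19.8% of all genes. For ATPgs minus adenosine (6 and 8), limma-voom called 11 and 16 and the fit with no filter 14 lower. Of all genes these called 31.5% and 9.70%, beside 17.3% in the main fit. Leaving out 1 library gave 4 to 12 higher and 7 to 17 lower, beside 11.9% to 33.0% of all genes. The cause of these moves was not tested. With adenosine the counts stayed within 1.5 times of 13 and 22. The replicate block gave 13 and 22 there, beside 51.0% of all genes, and 4 and 12 with ATPgs, beside 31.7%. Correlations of same-numbered deviations ran from −0.26 to 0.07, and those of different-numbered ones from −0.08 to 0.22. Such values cannot decide whether replicate numbers pair the samples, since deviations were taken from means of 3 libraries. Under ATPgs Nfatc3, Cbl and Prkcq lost their calls in 7, 6 and 9 of 13 alternatives, and under adenosine Nfatc3 in 4. Depth limits Cd4 most, at 8 to 30 counts per library in DNT and ADO.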
